A study of Mus musculus with 24 samples.

Results

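The 52 protein-coding genes that the deposited table annotates to the KEGG pathway fatty acid degradation were followed across the lungs of 24 mice. They were taken by an exact match of that pathway name, without use of their expression, from a table of 78298 genes, 21748 of them protein-coding. C57BL/6 mice, 7 weeks old, wild type and labelled male, formed 5 groups. Control mice (n = 4) were given sterile saline into the trachea, according to the treatment protocol, although their sample characteristics list the same challenge as the other mice. LPS mice (n = 5) were given lipopolysaccharide, the bacterial endotoxin used to induce acute lung injury, at 5 mg/kg by the same route. The other 3 groups of 5 mice drank AEAA, a water extract of the mugwort Artemisia argyi as the series title has it, at 0.5 mg/mL (low dose), 1 mg/mL (mid dose) or 1.5 mg/mL (high dose) for 28 days before the same LPS challenge. Lungs were taken 8 h after challenge from all groups, and no group was given AEAA without LPS.

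Fatty acids are activated to acyl-CoA by synthetases, carried into mitochondria by the carnitine shuttle, and shortened there in cycles of dehydrogenation, hydration, oxidation and thiolysis. Peroxisomes run a related cycle for very long and branched chains, and CYP4A enzymes with alcohol and aldehyde dehydrogenases oxidise the far, omega end. PPAR nuclear receptors, which sense fatty acids, are known to induce many of these genes, and in the lung type II alveolar cells and macrophages use fatty acid oxidation beside surfactant lipid turnover.

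Levels are given as scaled TPM. TPM is a length-normalised transcript abundance that adds up to the same total in every library, so it can be compared between genes. The club cell transcript Scgb1a1 took 23.2 to 35.5% of all TPM in control lungs and 2.51 to 8.8% in challenged lungs. TPM was therefore divided by a library factor, the median ratio over genes, which was 0.6454 to 0.8008 in control and 0.8868 to 1.269 in challenged libraries. As deposited, the median gene rose by 0.55 on the log2 scale from control to LPS, and after scaling by 0.00. Fold changes are differences of log2(scaled TPM + 1), which understate changes of genes at low levels, and the threshold was an adjusted p of 0.05 over 17823 genes tested with limma. No read counts were used here, and sequencing depth is therefore unknown. P-values set a difference of group means against the spread between mice within groups, estimated over all 5 groups together.

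Several libraries stood apart or went against their labels. Xist, a transcript of female cells, was 40.0 to 75.2 in all 24 libraries, while the Y-linked Ddx3y did not exceed 0.031, against the label male. Of the 20 challenged libraries, 7 had the chemokine transcript Cxcl2 at 0.0715 to 1.08, near the control range of 0.0782 to 0.357, and the other 13 had it at 40.2 to 430. The 7 were LPS mice 2 and 4, low-dose mouse 1, mid-dose mice 1 and 4 and high-dose mice 1 and 4. The skeletal muscle transcript Acta1 was 1840 and 1160 in LPS mice 1 and 3 and 473 in low-dose mouse 5, against at most 5.81 elsewhere. Clock output genes differed too, with Dbp at 266 to 316 in control and 8.04 to 32.7 in LPS lungs. Counts below are given with and without these libraries.

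Of the 52 members, 39 reached a TPM of 1 in 4 libraries or more and were tested. The 13 that were not tested were Cyp4a10, Cyp4a12a, Cyp4a14, Cyp4a29, Cyp4a30b, Cyp4a31, Cyp4a32 and Cyp2u1, which are fatty acid omega-hydroxylases or their close relatives, the synthetases Acsl6, Acsbg2 and Acsbg3, the isomerase Eci3 and the alcohol dehydrogenase Adh4. Cyp4a29 and Cyp4a30b were listed at 0 in all 24 libraries, and none of the 13 exceeded a deposited TPM of 1.77. The most abundant member by mean scaled TPM was Aldh2, the mitochondrial aldehyde dehydrogenase, at 869, followed by the long-chain acyl-CoA dehydrogenase Acadl at 135 and the mitochondrial thiolase Acaa2 at 124. The members together summed to 2980 ± 168 scaled TPM in control (SD, n = 4) and 2510 ± 192 in LPS lungs (SD, n = 5). Without Aldh2 the sums were 1770 ± 76.7 and 1690 ± 154. On TPM as deposited the order was the reverse, with sums of 2210 ± 174 in control and 2950 ± 181 in LPS lungs (SD, n = 4 and 5).

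RefSeq windows of 250 bases before to 50 bases after a gene's start (build GRCm38.p6) were found for 38 of the 52 members. Sequences of 2 loci are shown as a description, and no test related them to expression. They are Cpt1a, which had the largest called increase after LPS, and the start region that Hadha and Hadhb share. Hadha passed in LPS against control and Hadhb did not. In the Cpt1a window, chr19:3323051-3323350 on the plus strand, capitals mark TGACCT, which is the nuclear receptor half-site AGGTCA read on the other strand.
Cpt1a: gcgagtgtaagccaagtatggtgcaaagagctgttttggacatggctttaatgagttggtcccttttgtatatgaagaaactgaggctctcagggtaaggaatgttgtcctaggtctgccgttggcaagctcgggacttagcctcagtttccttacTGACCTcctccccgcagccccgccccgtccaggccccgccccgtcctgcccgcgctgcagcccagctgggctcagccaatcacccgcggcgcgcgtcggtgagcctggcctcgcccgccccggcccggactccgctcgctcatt
AGGTCA was searched on both strands and stood in 16.3% of 32851 promoter windows of the same length, and in 8 of the 42 windows of members. The exact direct repeat of 2 half-sites spaced by 1 base, a form bound by PPAR, was in 0.0396% of all windows and in no window of a member. This exact form is too rare for its absence from 42 windows to be informative. Hadha and Hadhb encode the alpha and beta subunits of the mitochondrial trifunctional protein and start 273 bases apart on chromosome 5, facing away from each other. In the Hadhb window, chr5:30155003-30155302 on the plus strand, capitals mark the 228 bases that also lie in the Hadha window, where they read on the other strand.
Hadhb: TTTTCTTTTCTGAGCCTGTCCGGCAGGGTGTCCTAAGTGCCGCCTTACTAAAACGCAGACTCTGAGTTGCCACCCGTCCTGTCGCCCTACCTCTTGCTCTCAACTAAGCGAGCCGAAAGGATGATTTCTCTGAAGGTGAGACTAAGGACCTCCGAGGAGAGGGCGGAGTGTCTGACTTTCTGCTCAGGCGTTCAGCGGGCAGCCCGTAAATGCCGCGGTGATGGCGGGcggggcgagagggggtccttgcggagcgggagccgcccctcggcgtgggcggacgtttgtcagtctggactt

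In LPS against control, 13 of the 39 members passed (33.3%), 4 higher and 9 lower. Of all genes tested 27.9% passed, 13.8% higher and 14.2% lower. Higher members were Cpt1a, Acox3, Hadha and Aldh9a1. Lower members were Cyp4a12b, Adh1, Acsl1, Aldh2, Acat1, Acat2, Echs1, Gcdh and Adh5. The median change over the 39 was -0.16 on the log2 scale, against 0.00 over all genes, and 24 of the 39 values were below 0. The shares of members and of all genes that passed were close. In limma 21 of the 39 members had an unadjusted p under 0.05, beside 41.8% of all genes. Lack of overlap between control and challenged mice, named below, describes single members and adds no test. On TPM as deposited the split was 27 higher and 1 lower, beside 56.2% and 1.86% of all genes. The summed level of 12 clock genes also differed between these 2 groups, at 841 to 921 in control and 222 to 328 in LPS mice. Of the 12, 8 were lower and 3 were higher, namely Bmal1, Npas2 and Nfil3. Whether this difference was separate from inflammation was not tested. The part of this clock difference in the members' changes was not tested.

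**Figure D1:**
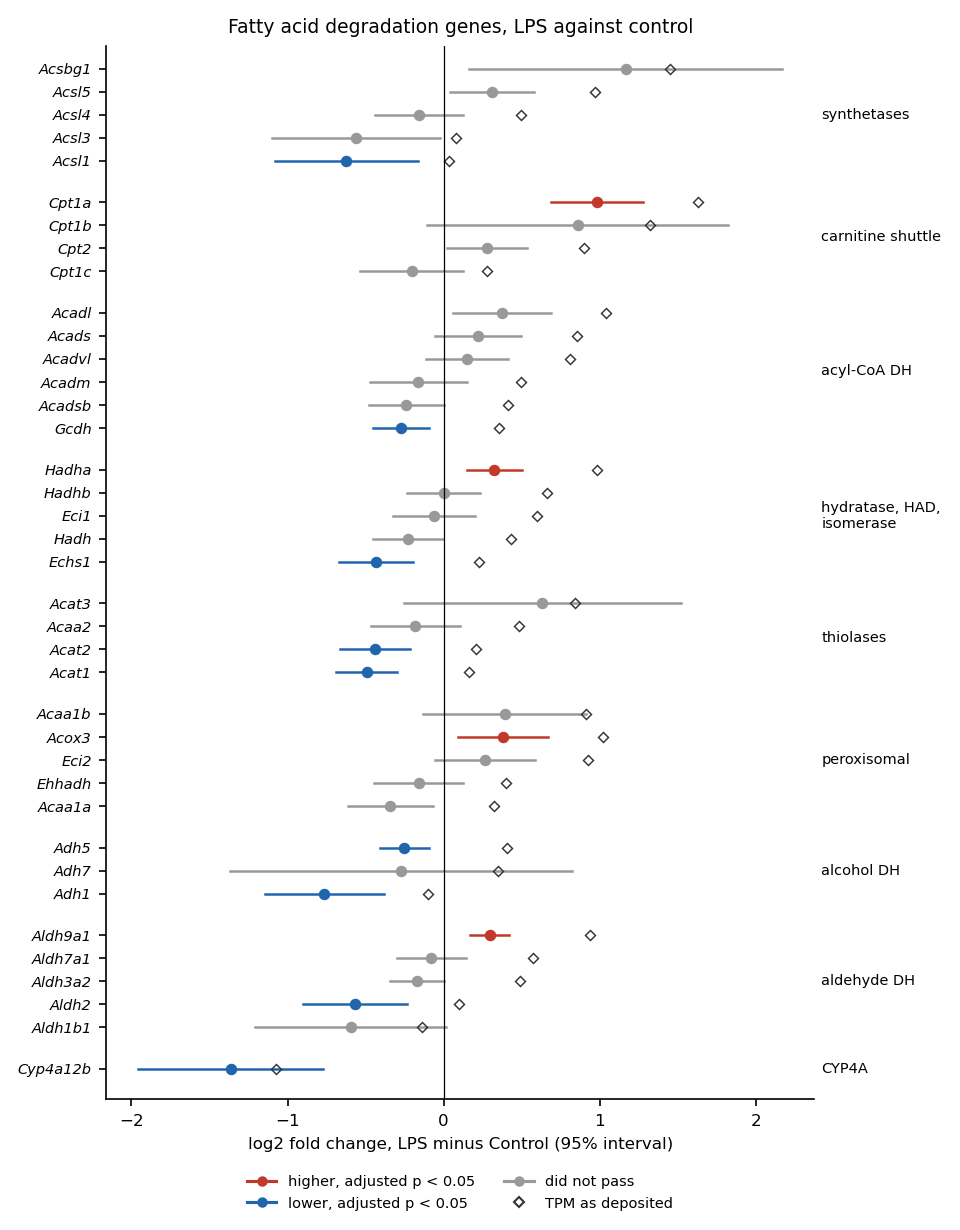
Log2 fold change of 38 of the 39 tested members, LPS minus control, on the x axis, with members on the y axis grouped by step (DH, dehydrogenase). Circles and lines are the scaled estimate and its 95% interval (red higher, blue lower, grey not passed), and diamonds are the same difference in TPM as deposited, which lie to the right of every circle. Cpt1a stands highest of the called members at 0.98 and Cyp4a12b lowest at -1.36, a difference in part set by the filter on low values.

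Without the 7 libraries with low Cxcl2, 22 members passed, 14 higher and 8 lower, beside 47.5% of all genes, 24.2% higher and 23.3% lower. The LPS mice left in this fit were 1, 3 and 5, and mice 1 and 3 were those with high Acta1. The part of muscle transcripts in the added calls was not tested. The additional higher members included the long-chain and short-chain acyl-CoA dehydrogenases, Acadl at 0.58 (adjusted p = 0.00161) and Acads at 0.45 (adjusted p = 0.00557), and the inner-membrane carnitine transferase Cpt2 at 0.41 (adjusted p = 0.0121). Acsl1, Echs1 and Gcdh were not among the 22. Without the 3 libraries rich in muscle transcripts, 11 passed, 2 higher and 9 lower, beside 15.3% of all genes, 7.29% higher and 8.04% lower.

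Among the 8 acyl-CoA synthetases, which activate fatty acids, 5 were tested and only Acsl1 passed. Acsl1, the main long-chain synthetase of oxidising tissues, was 55.1, 45.1, 50.8 and 58.5 in control mice and 31.0, 31.3, 54.9, 24.8 and 31.8 in LPS mice. LPS mouse 3 lay inside the control range and the other LPS mice lay below it. Acsl1 was lower by a log2 fold change of -0.62 (adjusted p = 0.04), a call lost when any 1 of 7 libraries was left out (control mice 1, 3 and 4 and LPS mice 1, 2, 4 and 5, adjusted p up to 0.0961). Acsl5, an inducible long-chain synthetase, had a value of 0.31 (adjusted p = 0.0749), and Acsl3, tied to lipid droplets, -0.56 (adjusted p = 0.107). Acsl4, which prefers arachidonic acid, was at -0.16 (adjusted p = 0.389).

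Acsbg1, a very-long-chain synthetase better known from brain and adrenal gland, had a wide spread and did not pass, at 1.17 (adjusted p = 0.0731). It was singled out after its values were seen. LPS mice had 14.6, 0.874, 5.91, 0.636 and 0.975, and control mice 0.759, 0.862, 0.344 and 0.599. Only LPS mice 1 and 3 exceeded 1, and these were the mice with high Acta1. Low-dose mouse 5, the other library with high Acta1, had 4.75, against at most 1.71 in any remaining library. Of the 9 skeletal muscle markers 5 were tested and none passed, Myh1, Myh2, Myh4 and Actn3 did not reach a TPM of 1 in 4 libraries, and the summed level of the 9 ranged from 12.8 to 3940 in LPS and from 31.8 to 52.4 in control. Without the 3 libraries the Acsbg1 value was 0.16 (adjusted p = 0.599).

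The carnitine shuttle held the largest called increase. Cpt1a, the outer-membrane transferase that commits long-chain fatty acids to mitochondrial oxidation, was 25.2, 31.3, 39.1 and 24.5 in control mice and 53.9, 49.7, 63.4, 59.6 and 71.7 in LPS mice. Every LPS mouse lay above every control mouse, and the log2 fold change was 0.98 (SE 0.14, adjusted p = 8.48e-05). In the 7 challenged libraries with low Cxcl2, Cpt1a was 49.7 to 66.5, also above all 4 control mice. Cpt2, which frees the acyl group inside the mitochondrion, was 14.3 to 15.3 in control and 15.3 to 24.1 in LPS lungs, with a value of 0.28 (adjusted p = 0.0969).

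The ratio of Cpt1a to Cpt2, which no scaling of a library can change, was 1.64 to 2.58 in control and 2.63 to 4.2 in LPS lungs. The groups did not overlap. This ratio and that of Hadha to Hadhb were chosen after the levels were seen and are given as a description. Tests of ratios chosen in this way are not reported. Cpt1b, the muscle isoform, was 12.1 and 12.8 in LPS mice 1 and 3, the libraries with high Acta1, and 2.39 to 2.71 in the other LPS mice. Its log2 fold change was 0.86 (adjusted p = 0.164), and 0.08 (adjusted p = 0.907) without the 3 muscle-rich libraries. Cpt1c, the brain isoform, had a value of -0.20 (adjusted p = 0.339).

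Of the 6 acyl-CoA dehydrogenases, which take the first step of each cycle, only Gcdh passed, and it was lower at -0.27 (adjusted p = 0.0235). Gcdh acts on glutaryl-CoA from lysine and tryptophan rather than on fatty acids, and its call was lost without control mouse 1, control mouse 4 or LPS mouse 2 (adjusted p up to 0.101). The 4 straight-chain enzymes, in order of falling chain length, had values of 0.15 for Acadvl, 0.38 for Acadl, -0.16 for Acadm and 0.22 for Acads. Acadl, the most abundant of the group, was 93.8 to 111 in control mice. In LPS mice it was 154, 108, 159, 108 and 147, so that mice 2 and 4, with low Cxcl2, lay within the control range and the other 3 lay above it. Over all 5 mice it did not pass (adjusted p = 0.0663). Acadsb, for short branched chains, had a value of -0.24 (adjusted p = 0.119).

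The next steps of the mitochondrial cycle include those of the trifunctional protein. Hadha, the subunit with hydratase and hydroxyacyl-CoA dehydrogenase activity for long chains, was 52.5, 55.0, 53.5 and 60.4 in control and 74.3, 65.6, 82.8, 61.4 and 65.2 in LPS mice. All LPS mice lay above all control mice, with a log2 fold change of 0.33 (SE 0.09, adjusted p = 0.00838). The call was lost without the 3 muscle-rich libraries, at 0.21 (adjusted p = 0.111). Hadhb, the thiolase subunit, was 74.7 to 85.4 in control and 66.1 to 105 in LPS mice. Its groups overlapped, with a log2 fold change of 0.00 and a 95% interval of -0.24 to 0.24.

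The ratio of Hadha to Hadhb was 0.657, 0.736, 0.682 and 0.707 in control and 0.929, 0.88, 0.789, 0.802 and 0.986 in LPS mice. All LPS ratios were above all control ratios. Low-dose mice had ratios of 0.78 to 0.875, mid-dose mice 0.851 to 1.02 and high-dose mice 0.691 to 0.956. High-dose mouse 4, at 0.691, lay within the control range. The 228 shared bases printed above lie between the 2 start sites.

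Echs1, the hydratase for short chains, was 75.8 to 102 in control. In LPS mice it was 68.2, 54.1, 87.0, 57.7 and 61.4, below the control range except for mouse 3. It was lower by -0.43 (adjusted p = 0.00795). On the same scale Hadh, the short-chain hydroxyacyl-CoA dehydrogenase, had a value of -0.23 (adjusted p = 0.114) and the isomerase Eci1 a value of -0.06 (adjusted p = 0.736).

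Of the 4 thiolases outside peroxisomes, which release acetyl-CoA, 2 were lower. Acat1, the mitochondrial acetoacetyl-CoA thiolase of ketone body and isoleucine metabolism, was 51.1, 41.3, 47.4 and 44.8 in control and 34.3, 35.8, 34.6, 30.1 and 28.0 in LPS mice. The groups did not overlap, and Acat1 was lower by -0.49 (SE 0.09, adjusted p = 0.000891). Acat2, its cytosolic counterpart that feeds sterol synthesis, was lower by -0.44 (adjusted p = 0.00513). Acaa2, the main mitochondrial thiolase for fatty acids, was 128 to 142 in control and 111 to 122 in LPS lungs. Its value of -0.18 did not pass (adjusted p = 0.319).

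Acat3, a close paralog of Acat2 whose reads may be shared with it, was low throughout and was singled out after its values were seen. Control mice had 0.312 to 0.516. LPS mice 2 and 4 had 0.213 and 0.23, and LPS mice 1, 3 and 5 had 1.48, 3.79 and 1.74. In the 7 challenged libraries with low Cxcl2 Acat3 was 0.213 to 0.784, and in the 13 others it was 1.1 to 3.83. Over all LPS mice its log2 fold change of 0.63 did not pass (adjusted p = 0.267). Leaving out the 7 libraries removes LPS mice 2 and 4, which held its lowest LPS values. Its value of 1.19 in that fit is therefore given as a description, although Acat3 is counted among the higher members there.

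In the peroxisomal cycle 1 of 6 tested members passed. Acox3, the oxidase for branched chains, was 16.6 to 21.7 in control and 21.3, 21.9, 33.1, 23.2 and 29.1 in LPS mice. LPS mouse 1 overlapped the highest control mouse and the other 4 lay above it. Acox3 was higher by 0.38 (adjusted p = 0.0441), a call lost without control mouse 1, 2 or 3 or LPS mouse 3 or 5 (adjusted p up to 0.14). Eci2, an isomerase for unsaturated chains, had a value of 0.26 (adjusted p = 0.201). Acaa1a, the peroxisomal thiolase, had a value of -0.34 (adjusted p = 0.0568), and since Acaa1b is nearly identical to it, the division of reads between them is uncertain.

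Of 8 tested alcohol and aldehyde dehydrogenases, 3 were lower and 1 was higher. Aldh2, which clears acetaldehyde and lipid peroxidation aldehydes, was 1190, 1040, 1250 and 1380 in control and 727, 720, 777, 878 and 1000 in LPS mice. The groups did not overlap, and Aldh2 was lower by -0.57 (SE 0.16, adjusted p = 0.0127). Adh1, which oxidises ethanol and retinol, was 153, 144, 113 and 124 in control and 74.5, 84.1, 64.0, 91.3 and 77.6 in LPS mice. These groups did not overlap either, with a value of -0.76 (SE 0.18, adjusted p = 0.00467). Adh5, the formaldehyde and S-nitrosoglutathione enzyme, was lower by -0.25 (adjusted p = 0.0175), a call lost without control mouse 1 (adjusted p = 0.0655).

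Aldh9a1, which makes a precursor of carnitine, moved the other way. It was 24, 26.4, 25.7 and 23.6 in control and 31.2, 27.6, 31.5, 31.6 and 32.2 in LPS mice. All LPS mice were above all control mice, with LPS mouse 2 nearest to them, and the log2 fold change was 0.30 (SE 0.06, adjusted p = 0.00132). The fatty aldehyde dehydrogenase Aldh3a2 had a value of -0.17 (adjusted p = 0.122), Aldh7a1 of lysine breakdown -0.08 (adjusted p = 0.591) and the mitochondrial Aldh1b1 -0.59 (adjusted p = 0.13). Adh7, an epithelial retinol and ethanol dehydrogenase singled out after its values were seen, was 15.3 to 35.1 in the 7 challenged libraries with low Cxcl2 and 12.7 to 16.8 in control. In the 13 other challenged libraries it was 3.45 to 17.2, and LPS mouse 1 held the 17.2.

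**Figure D2:**
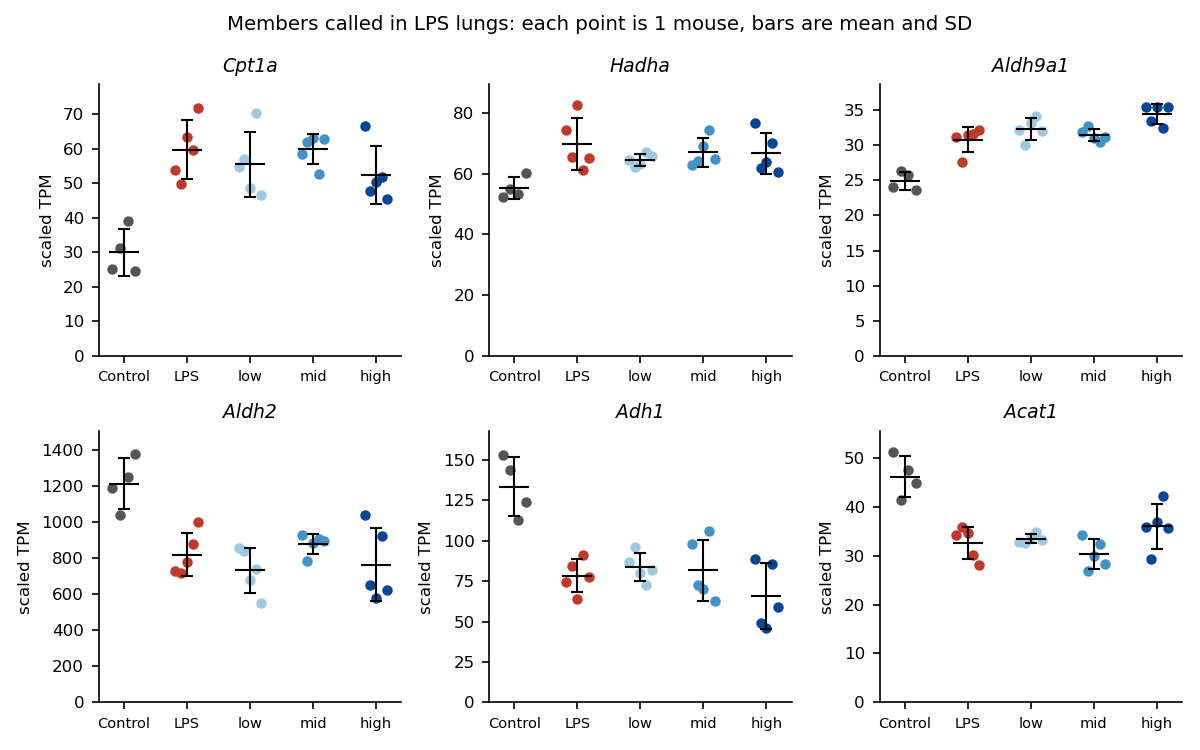
Scaled TPM on the y axis for 6 members called in LPS against control, by group on the x axis, with 1 point per mouse and bars for mean and SD. Cpt1a, Hadha and Aldh9a1 lie above the control mice in every challenged group, and Aldh2, Adh1 and Acat1 lie below the lowest control mouse except in 1 high-dose mouse each for Acat1, at 42.1, and Aldh2, at 1040.

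Of the 9 omega-hydroxylases only Cyp4a12b was tested. It passed the filter on low values through 3 control mice and 1 high-dose mouse, so its difference from control was in part set by the filter. It was 0.728, 1.72, 2.98 and 3.43 in control and 0.0446 to 0.257 in LPS mice. Its value of -1.36 is given as a description. It is nevertheless included among the lower members counted for LPS and for each dose against control. Its near-identical copy Cyp4a12a could share its reads.

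Markers of some other cells also differed between control and LPS lungs, and those of others mostly did not pass. Of 6 club cell markers 5 were lower in LPS lungs, and their summed level was 311000 to 583000 in control and 29300 to 63300 in LPS mice. Of 9 cardiac muscle markers, a tissue rich in fatty acid oxidation, 6 were lower, with sums of 1070 to 2060 and 320 to 462. Of 10 neutrophil markers 8 were higher, with sums of 213 to 253 in control and 488 to 11300 in LPS mice. Of 7 type II alveolar cell markers 1 was higher and 1 lower, with sums of 52700 to 59600 in control and 16900 to 31900 in LPS mice. Of 8 adipocyte markers 1 was higher, with sums of 147 to 385 and 98.7 to 1170. Of 7 endothelial markers 2 were higher and 1 lower. Of 6 type I alveolar cell markers 1 was lower, and none of 8 alveolar macrophage markers passed. The part of these cells in the members' changes was not tested. In whole lung, fewer cells of a type and less RNA per cell cannot be told apart.

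**Figure D3:**
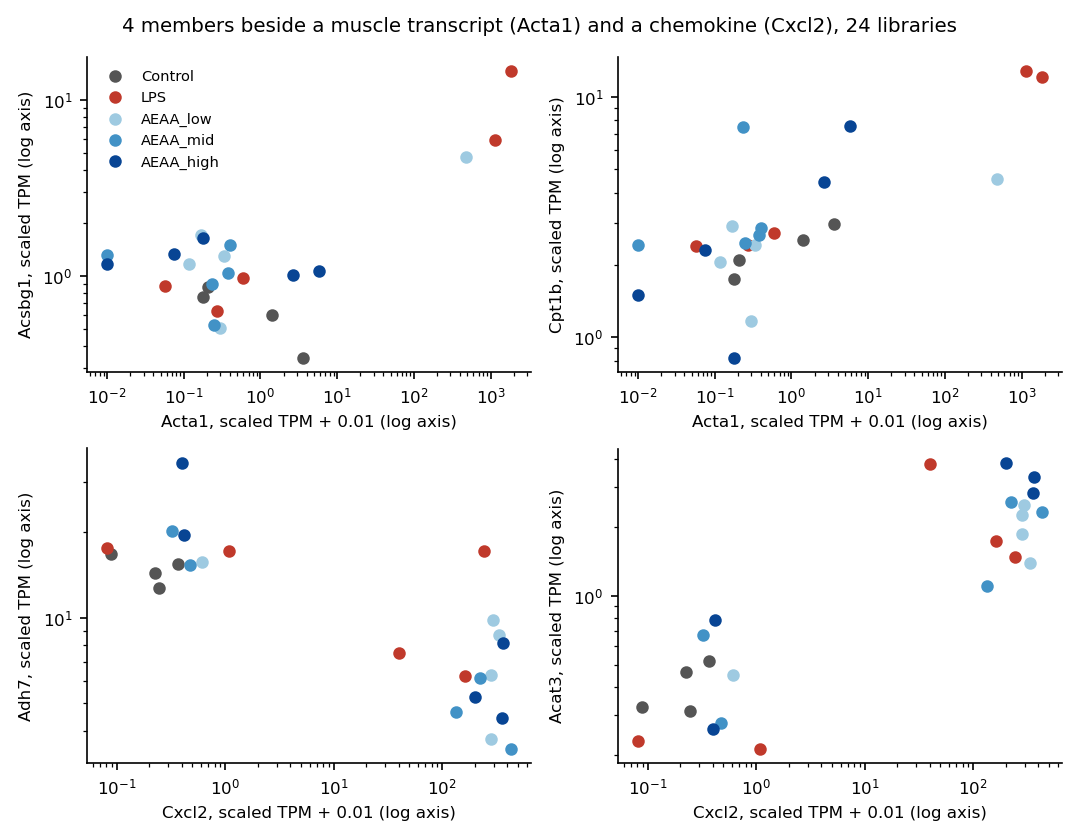
Scaled TPM of Acsbg1 and Cpt1b (y axes) against Acta1, and of Adh7 and Acat3 against Cxcl2 (x axes), on log axes with 0.01 added to the x values, for 24 libraries coloured by group. The 3 libraries with Acta1 of 473 or more hold the 3 highest Acsbg1 values, and the 7 challenged libraries with Cxcl2 under 2 have Acat3 of 0.213 to 0.784, against 0.312 to 0.516 in control.

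Genes of the same system outside the 52 members gave the context. Their counts in LPS lungs stand beside the 13.8% of all genes that were higher and the 14.2% that were lower. Of 10 tested PPAR receptors, coactivators and corepressors, 2 were higher, Ppard, a fatty acid receptor, at 1.01 (adjusted p = 0.000134) and the corepressor Ncor1 at 0.95 (adjusted p = 6.85e-05). Ppara was at a mean of 1.07 in control and 1.24 in LPS lungs. Of 13 tested PPAR targets outside the members, 6 were higher and none lower. They included Pdk4, which restrains glucose oxidation, at 1.92 (adjusted p = 0.0103), the lipase inhibitor Angptl4 at 1.86 (adjusted p = 0.0152), the uncoupling protein Ucp2 at 1.01 (adjusted p = 0.00347) and the acyl-CoA thioesterase Acot1 at 1.01 (adjusted p = 0.0215).

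Of 30 other fatty acid oxidation genes 3 were higher and 11 lower. Mcee, which acts on methylmalonyl-CoA from odd chains, had the lowest value at -1.27 (adjusted p = 0.000335). It was 102 ± 15.7 in control (SD, n = 4) and 42.0 ± 9.42 in LPS lungs (SD, n = 5). The fatty acid transporters Slc27a2 and Slc27a4 differed in sign, at -0.85 (adjusted p = 0.0181) and 0.72 (adjusted p = 0.00299), and the thioesterase Acot13 was lower at -0.81 (adjusted p = 0.000113).

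The 3 doses were then compared with LPS alone, which asks whether AEAA before the challenge altered these genes. These comparisons share the 5 LPS libraries. At the low dose 0 of 39 members passed in limma, beside 2.29% of all genes, and 2 had an unadjusted p under 0.05, beside 15.9% of all genes. At the mid dose 0 passed, beside 0% of all genes, and 1 had an unadjusted p under 0.05, beside 3.04%. At the high dose 3 passed (7.69%), all higher, beside 8.94% of all genes, 5.67% higher and 3.27% lower, and 9 had an unadjusted p under 0.05, beside 23.6%. The share of members that passed was near that of all genes at each dose.

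The 3 members higher at the high dose were Acaa1a, Acsl4 and Adh5. Acaa1a, the peroxisomal thiolase, was 105, 67.2, 81.3, 64.1 and 102 in LPS and 97.2, 125, 110, 100 and 120 in high-dose mice. The groups overlapped, with LPS mice 1 and 5 inside the high-dose range and LPS mice 2, 3 and 4 below it. The log2 fold change was 0.42 (SE 0.12, adjusted p = 0.0385), and the low and mid doses had values of 0.35 (adjusted p = 0.149) and 0.28 (adjusted p = 1). Against control, Acaa1a at the high dose had a value of 0.08 (adjusted p = 0.692).

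Acsl4 was 51.8, 46.7, 31.5, 44.0 and 43.1 in LPS and 50.0, 46.6, 70.9, 56.1 and 66.8 in high-dose mice. High-dose mice 3, 4 and 5 lay above all LPS mice and the other 2 lay among them, with a value of 0.41 (SE 0.13, adjusted p = 0.0478). Adh5 was 51.2 to 59.4 in LPS and 57.1, 71.6, 67.4, 63.0 and 74.3 in high-dose mice. All high-dose mice except mouse 1 lay above the LPS range, with a value of 0.25 (SE 0.07, adjusted p = 0.0349). Against control, Adh5 at the high dose had a value of -0.01 (adjusted p = 0.956).

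**Figure D4:**
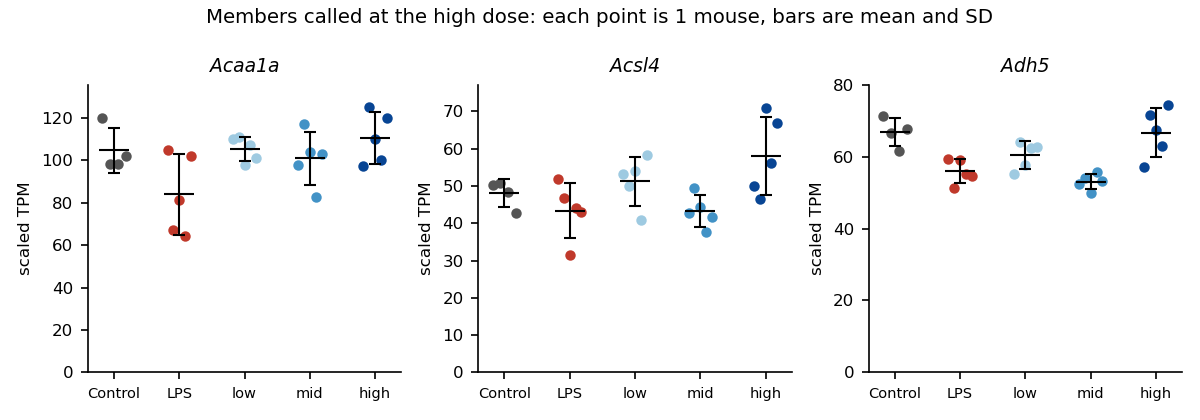
Scaled TPM on the y axis of the 3 members called at the high dose against LPS, by group on the x axis, with 1 point per mouse and bars for mean and SD. The high-dose and LPS groups overlap for each of the 3, and the high-dose points of Adh5, 57.1 to 74.3, cover the control range of 61.7 to 71.2.

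Each of these 3 calls was lost when any 1 of 6 libraries was left out, with adjusted p up to 0.115 for Acaa1a, 0.143 for Acsl4 and 0.113 for Adh5. For Acaa1a they were LPS mice 2, 3 and 4 and high-dose mice 2, 3 and 5, for Acsl4 LPS mice 3, 4 and 5 and high-dose mice 3, 4 and 5, and for Adh5 LPS mice 2, 4 and 5 and high-dose mice 2, 3 and 5. As deposited, 0 members were higher and 9 lower at the high dose, beside 2.05% and 25.5% of all genes, and Adh5 turned to -0.07. Both scalings therefore gave different calls for this comparison.

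Acox3 and Aldh9a1 did not pass at the high dose, yet their groups did not overlap. Acox3 was 18.1 to 20.9 in high-dose and 21.3 to 33.1 in LPS mice, at -0.39 (adjusted p = 0.0642). Aldh9a1 was 32.4 to 35.5 in high-dose and 27.6 to 32.2 in LPS mice, at 0.16 (adjusted p = 0.0892). Groups without overlap made up 2.36% of all genes for higher and 1.58% for lower values. Without the 7 libraries with low Cxcl2, 3 mice were left in each of these groups. In that fit 10 members passed at the high dose, 3 higher and 7 lower. Of all genes 24.9% passed there, 14.1% higher and 10.7% lower. The 3 higher were again Acaa1a, Acsl4 and Adh5.

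The lower members in that fit included Cpt1b at -1.82 (adjusted p = 0.00413), Acox3 at -0.53 (adjusted p = 0.0221), Cpt1c, Adh1, Cpt2 and Hadha. Of the 3 LPS mice left, 2 were the mice with high Acta1 and Cpt1b. Without the 3 muscle-rich libraries 2 members passed at the high dose, both higher. Of all genes 5.46% passed there, 3.85% higher and 1.61% lower. The values of Cpt1a at the low, mid and high dose against LPS were -0.11, 0.01 and -0.19, with 95% intervals of -0.38 to 0.17, -0.27 to 0.29 and -0.46 to 0.09.

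Another low-dose value with a small p was Acsl4 at 0.24 (adjusted p = 0.363). At the mid dose such values were Aldh1b1 at 0.57, and Acsbg1 at -0.85, each with an adjusted p of 1. None of these passed. In a linear trend over LPS and the 3 doses, per 1 mg/mL, 0 of 39 members passed in limma, beside 1.64% of all genes, and 8 had an unadjusted p under 0.05, beside 16% of all genes. The smallest p belonged to Acaa1a at 0.24 (adjusted p = 0.122), Acsl4 at 0.20 (adjusted p = 0.218) and Adh5 at 0.11 (adjusted p = 0.219). Without the 7 libraries 3 members fell with dose, Cpt2, Adh1 and Cpt1b. Of all genes 16% were called in that fit, 9.9% rising and 6.13% falling with dose. The LPS mice in that fit were 1, 3 and 5, and mice 1 and 3 had high Acta1 and Cpt1b. The part of muscle transcripts in these falls was not tested.

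In the context lists at the high dose against LPS, Ncor1 was lower at -0.50 (adjusted p = 0.0168) and no tested PPAR target passed. Of the 30 other oxidation genes 3 were higher and 1 lower, beside 5.67% and 3.27% of all genes. The electron transfer flavoprotein subunits Etfb and Etfa were higher at 0.53 (adjusted p = 0.0021) and 0.34 (adjusted p = 0.027), as was Acot13 at 0.45 (adjusted p = 0.0158). Etfb, Etfa and the dose values of Ncor1 and Acot13 were named after their values were seen, as genes that passed.

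Each dose was finally set against control, which asks what remained of the difference from unchallenged lung. These comparisons share the 4 control libraries with each other and with LPS against control. The summed level of the 12 clock genes was 841 to 921 in control. It was 148 to 329 in low-dose, 239 to 499 in mid-dose and 188 to 627 in high-dose mice. The part of this clock difference in the members' values was not tested. At the low dose 13 members passed, 3 higher and 10 lower, beside 25.7% of all genes, 13.1% higher and 12.6% lower. At the mid dose 16 passed, 5 higher and 11 lower, beside 28.3%, 14.2% higher and 14.1% lower. At the high dose 10 passed, 6 higher and 4 lower, beside 18.5%, 9.42% higher and 9.09% lower.

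Cpt1a was 46.6 to 70.4 in low-dose, 52.8 to 63.1 in mid-dose and 45.3 to 66.5 in high-dose mice, above the highest control mouse at 39.1 in all 15. Its values against control were 0.98 for LPS, 0.87 for the low dose (adjusted p = 0.000638), 0.99 for the mid dose (adjusted p = 0.000112) and 0.79 for the high dose (adjusted p = 0.00186). The ratio of Cpt1a to Cpt2 was 2.63 to 4.52 over these 15 mice. Aldh9a1 had values of 0.36, 0.33 and 0.45 (adjusted p = 0.000703, 0.000684 and 0.000124), and all treated mice lay above all control mice. Acsl5 was higher at 0.47, 0.40 and 0.37 (adjusted p = 0.0151, 0.0253 and 0.0493). Its mid-dose call was lost without any 1 of 4 libraries (control mice 3 and 4 and mid-dose mice 2 and 3, adjusted p up to 0.0727). For LPS alone its value was 0.31 and did not pass, and at no dose did it pass against LPS.

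Cyp4a12b, whose difference from control was in part set by the filter, had values of -1.26, -1.13 and -1.08 at the low, mid and high dose. High-dose mouse 4 had 1.76, inside the control range, and the high-dose call was lost without any 1 of 4 libraries (control mice 3 and 4 and high-dose mice 2 and 3, adjusted p up to 0.0615). Adh1 was 72.6 to 95.9, 62.5 to 106 and 45.8 to 89.0, all below the lowest control mouse at 113. Its values were -0.67, -0.72 and -1.06 (adjusted p = 0.015, 0.00701 and 0.00163). Aldh2 had values of -0.73, -0.46 and -0.70 (adjusted p = 0.00478, 0.0386 and 0.00964), with high-dose mouse 1, at 1040, level with control mouse 2.

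The high dose had the widest spread of Aldh2 and Adh1. Aldh2 was 1040 and 924 in high-dose mice 1 and 4, which had low Cxcl2, and 653, 581 and 625 in mice 2, 3 and 5. Adh1 was 89.0 and 85.6 in the first 2 and 49.4, 45.8 and 59.0 in the others. The link of these levels to Cxcl2 was noticed after the values were seen and was not tested.

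Acadl passed at the high dose and not at the other 2, at 0.71 (adjusted p = 0.0063), with 146, 165, 190, 175 and 168 against 93.8 to 111 in control. All 5 mice lay above control, including the 2 with low Cxcl2, and the value against LPS was 0.33 (adjusted p = 0.154). Eci2 was 90.1 to 116 in high-dose and 55.8 to 75.6 in control mice, at 0.58 (adjusted p = 0.0177), a call lost without control mouse 4 or high-dose mouse 2 (adjusted p up to 0.0616). Acox3 was higher at the mid dose, at 0.52 (adjusted p = 0.00938), and did not pass at the low or high dose. Acsl3 was lower at the low and mid dose, at -0.95 (adjusted p = 0.0142) and -0.82 (adjusted p = 0.0237). The mid-dose call was lost without any 1 of 4 libraries (control mice 1 and 4 and mid-dose mice 2 and 5, adjusted p up to 0.0719). Acsl1 was lower at the mid dose at -0.74 (adjusted p = 0.0175).

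**Figure D5:**
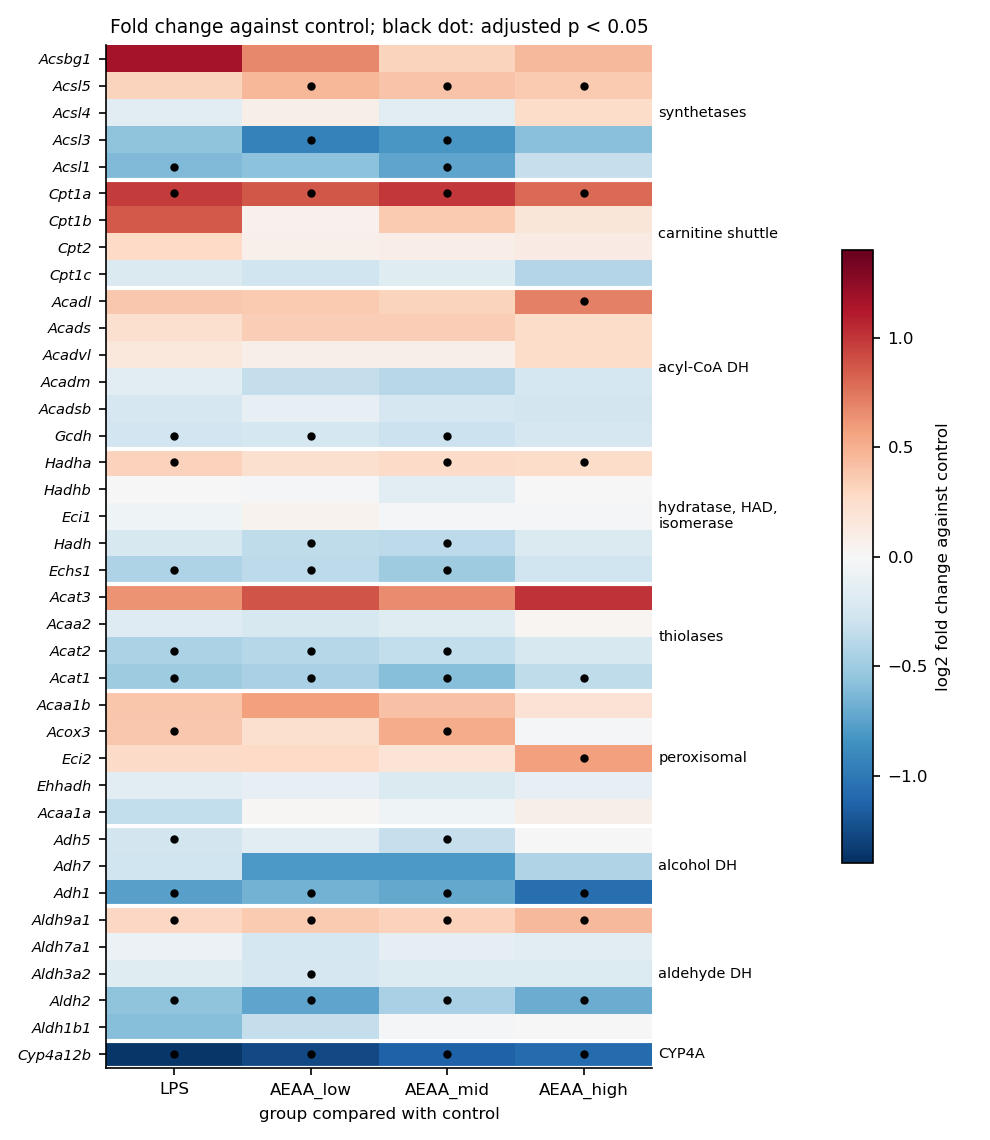
Log2 fold change against control (colour, red higher and blue lower) of 38 of the 39 tested members on the y axis in the LPS, low-dose, mid-dose and high-dose groups on the x axis. Black dots mark an adjusted p of 0.05 or less, and all 4 columns share the 4 control mice. Cpt1a is red and dotted in each column, from 0.79 to 0.99, and Adh1 is blue and dotted, from -0.67 to -1.06.

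Without the 7 libraries with low Cxcl2 the counts against control were 21, 22 and 20 from the low to the high dose, beside 43.6%, 45.5% and 51.6% of all genes. Of these, 7, 8 and 6 were higher, beside 22.2%, 23.2% and 26.7% of all genes. The other 14, 14 and 14 were lower, beside 21.3%, 22.3% and 24.9%. Without the 3 muscle-rich libraries they were 11, 17 and 10, beside 14.4%, 27.2% and 16.4% of all genes. Of these, 3, 6 and 5 were higher, beside 7.22%, 13.5% and 8.24% of all genes. The other 8, 11 and 5 were lower, beside 7.15%, 13.7% and 8.13%. The low-dose count was 7 and the mid-dose count 10 without control mouse 1, and the high-dose count was 5 without high-dose mouse 2.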

How the data were processed

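Lung RNA of 24 mice was depleted of ribosomal RNA and sequenced as paired-end reads of 150 bases, per the labels' protocols. The deposited table gives TPM per gene and library, made by the authors. HISAT2, StringTie, RSEM and DESeq2 and build GRCm39 are named in the submitters' processing notes, without version or role. No counts were used, so depth and counting error are unknown.

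Each library was divided by its median-of-ratios factor. Genes that reached a deposited TPM of 1 in 4 libraries or more were kept, and a pseudocount of 1 was added before log2. The model in limma 3.58.1, run in R 4.3.3, had 1 mean for each group and used the 24 libraries together, with a variance trend, a robust prior, two-sided tests and Benjamini-Hochberg adjustment over all genes tested. Scripts were tested on simulated data. Replicate numbers were not used to pair mice in the main fit. Same-numbered libraries of different groups had a mean correlation of 0.0781 in their deviations from group means, and other pairs -0.0184. No 2 libraries were identical. Of the genes tested, 1 member and 1 gene of the context lists are not reported here.

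The members and lists were chosen with earlier results of these data known. Named members were, per comparison with control, the largest called changes in each direction (6 for LPS, 3 per dose), per dose against LPS the 5 largest called in each direction or the 3 smallest p, for the trend the 3 smallest p, the most abundant member of each role group, and the 4 largest called changes of each context list. Further members were named as called, as steps of the pathway, or after their values were seen. Alternatives were TPM as deposited, upper-quartile scaling, a pseudocount of 0.1, no filter, a filter on mean TPM, only the compared groups, the replicate number as a block, sample weights, no variance trend, and leaving out each library. Leaving out the 7 libraries with Cxcl2 under 2 or the 3 with Acta1 over 100 was added after seeing the data. Genomic positions of other genes were not used here, since the reference given was of another build.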

Additional observations from a re-analysis of the deposited data

Results flagged for a closer look

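In 27 named or called members, the highest or lowest mouse of each group was checked for a gap to the next mouse that is wide beside the range of its group, which gave 135 checks. For independent values of a normal distribution, chance alone flags about 1 in 20 such groups, or 6.75 of the 135, and 7 were found. That rate is a rough guide only. Some members were named after their values were seen, and checks that share a mouse are not independent. Of these 7, 3 were in mid-dose mouse 4, which had low Cxcl2: Acox3 at 37.6 scaled TPM (others 23.4 to 27.2), Aldh1b1 at 7.2 (others 2.21 to 3.14) and Cpt1b at 7.49 (others 2.41 to 2.86). Acsl1 was 54.9 in LPS mouse 3 (others 24.8 to 31.8), a library with high Acta1. Acsbg1 was 4.75 in low-dose mouse 5 (others 0.507 to 1.71), also with high Acta1. Aldh1b1 was 4.88 in low-dose mouse 4 (others 1.8 to 1.97). Aldh9a1 was 27.6 in LPS mouse 2 (others 31.2 to 32.2), a library with low Cxcl2, and this was the only flagged value that was the lowest of its group.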

How the results depend on the processing

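Depth is unknown, which leaves the precision of members near 1 TPM open to counting error of unknown size, and 4 or 5 mice a group limit every call. Counts of called members stayed within 1.5 times the value reported under upper-quartile scaling, a pseudocount of 0.1, a filter on mean TPM, no variance trend and without the 3 muscle-rich libraries. On TPM as deposited, LPS against control gave 28 members, the low dose against LPS 3, the high dose against LPS 9, the high dose against control 17 and the trend 1. With no filter, the high dose against LPS gave 0. With only the compared groups in the fit, the high dose gave 0 against LPS and 5 against control. With sample weights, LPS against control gave 21, the high dose against LPS 7, the low and high dose against control 23 each and the trend 4. Without the 7 libraries with low Cxcl2, LPS against control gave 22, the high dose against LPS 10, the low and high dose against control 21 and 20 and the trend 3. The cause of these shifts was not tested.

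With the replicate number as a block, the high dose against LPS gave 1 member, and no other count moved by more than 1.5 times (14 for LPS against control). Of the 24 libraries, 5 correlated best with a library of their own number. Mean correlations were 0.0781 for same-numbered pairs and -0.0184 for other pairs. All libraries with low Cxcl2 except LPS mouse 2 had number 1 or 4. These values cannot exclude a factor shared by libraries of the same number.

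Leaving out each library in turn gave 9 to 15 members for LPS against control, 0 to 4 for the high dose against LPS, 7 to 13, 10 to 17 and 5 to 14 for the low, mid and high dose against control, and 0 to 1 for the trend. The low and mid dose against LPS gave 0 each time. The trend call appeared without LPS mouse 1 or high-dose mouse 1. The high-dose count against LPS was 0 or 1 without LPS mice 3, 4 or 5 or high-dose mice 2, 3 or 5.

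On TPM as deposited, 15 values changed sign. For LPS against control they were Acsl1 at 0.032, Aldh2 at 0.10, Acat1 at 0.16, Acat2 at 0.21, Echs1 at 0.23, Acaa2 at 0.48, Acaa1a at 0.32, Hadh at 0.43, Gcdh at 0.36, Adh5 at 0.41, Acsl3 at 0.076 and Adh7 at 0.35, beside a median gene at 0.55. For the high dose against LPS they were Adh5 at -0.068 and Aldh9a1 at -0.15, beside a median gene at -0.27, and for the trend Adh5 at -0.042. Acsbg1 at the mid dose against LPS turned to 0.15 without the 3 muscle-rich libraries.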

Other observations

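Members that passed nowhere against control included Hadhb, Ehhadh, the multifunctional peroxisomal enzyme, and Acadm. Ehhadh had a log2 value of -0.16 for LPS against control (95% interval -0.45 to 0.13). The summed level of the 52 members was 2420 ± 172 in low-dose, 2530 ± 71.5 in mid-dose and 2580 ± 325 in high-dose lungs (SD, n = 5 each), and 2430 ± 191, 2880 ± 265 and 2460 ± 485 on TPM as deposited. The summed level of alveolar macrophage markers was 549 to 570 in control, 448 to 1310 in LPS, 1180 to 1470 in low-dose, 797 to 1690 in mid-dose and 412 to 1480 in high-dose lungs. Among LPS lungs the PPAR target Pdk4 ranged from 12.9 to 80.5 and Angptl4 from 30.7 to 114, against 5.47 to 11.0 and 8.13 to 36.9 in control. Pdk4 was 8.35 to 34.8 in low-dose, 10.4 to 23.0 in mid-dose and 8.21 to 55.5 in high-dose lungs. The CCAAT box, searched on both strands, was in 20 of the 42 member promoter windows and in 37.4% of all windows.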
